A study of Homo sapiens with 12 samples.

Results

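The comparison described here is that of HT29 cells transfected with siLRH-1 #2, 1 of a pair of siRNAs against the nuclear receptor LRH-1, with HT29 cells transfected with siLUC, a non-targeting siRNA directed at luciferase. Its members are the 8 arrays that carry these labels, out of 12 in the series, with 4 arrays in each group. The other 4 arrays hold cells transfected with siLRH-1 #1 and are used only where the siRNAs are set against each other. HT29 is an established line of human colorectal cancer cells with a mutated p53 gene. All groups received double-stranded RNA at 5 nM by reverse transfection with a lipid reagent, and total RNA was taken after 24 h and measured on Illumina HumanHT-12 v4 BeadChips. The study describes the arrays of a group as independent biological replicates. siLRH-1 #2 is 1 RNA duplex in 1 cell line, so that effects of losing LRH-1 and other effects of this duplex cannot be told apart within this comparison. NR5A2, the gene that encodes LRH-1, was not analysed here, and the knockdown was therefore not checked in these values.

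LRH-1 belongs to the nuclear receptors and binds DNA as a monomer and activates or represses its target genes together with coregulators. Among its known targets are genes for making bile acids and steroid hormones, and in the gut it acts with β-catenin on the dividing cells of the crypt epithelium. The question of the comparison was which genes depend on LRH-1 in HT29 cells, in which the study set out to define LRH-1-regulated genes.

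Values are normalized log2 signals of probes, so that a difference of 1 is a 2-fold change of signal, and the deposited table held 16381 probes. The array medians lay between 6.56 and 6.57 and the correlation between any pair of arrays between 0.993 and 0.997. Array siLRH-1 #2 replicate 2 stood apart from the rest. In it, 50 probes exceeded every other array by 0.5 or more, against at most 1 probe in any other array, and the results are therefore also given without this array. Of 18 measured markers of colon epithelium, 16 lay above the array medians in siLUC cells, with EPCAM the highest at 13.45. The 3 measured fibroblast markers (COL1A2, DCN and LUM) and the endothelial receptor gene KDR stayed between 5.91 and 6.22 in siLUC. Among 3 leukocyte markers, CD14 was dim (6.26), whereas HLA-DRA (7.71) and LYZ (13.76) lay above the array medians. LYZ is the lysozyme gene that secretory cells of the gut also express. None of these 7 markers of other cell types was called with siLRH-1 #2.

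siLRH-1 #2 changed many genes, most of them by a small factor. Of 7331 named genes, each represented by its brightest probe, 735 (10.0%) were called at an adjusted p under 0.05 in a limma fit across all probes. Of these, 377 (5.14%) were higher and 358 (4.88%) lower than in siLUC. The median change of the called genes was 1.21-fold upwards and 1.23-fold downwards, and 43 genes (0.587%) were called and changed at least 1.5-fold, 14 of them higher and 29 lower. Among the named genes, CLDN12 and FGFR3 were the 2 that rose more than 2-fold, and 5 fell more than 2-fold, namely DYNLRB1, CFDP1, PROSER1, KRT80 and MYB. These gene counts leave out the 6621 of 16381 probes that have no gene name. Over all probes, 3 were called and at least 2-fold higher, and 9 were called and at least 2-fold lower. Without siLRH-1 #2 replicate 2, 632 genes (8.62%) were called, 317 (4.32%) higher and 315 (4.3%) lower, and 575 of the 735 were called in the same direction. A stricter set of 414 genes (5.65%) was called in each of the 8 fits that left out 1 array of these groups, 193 (2.63%) higher and 221 (3.01%) lower. Calls were more frequent among bright probes, with 1.72% of genes called among the dimmest of 3 equal classes of signal, 12.9% in the middle class and 15.4% among the brightest. Counts for the gene lists below are to be read against these shares and the 10.0% of all genes. Over all probes, 1146 (7.0%) were called, 533 of them higher (3.25%) and 613 lower (3.74%). In bulk RNA, a change of RNA per cell and a change in the mix of cell states cannot be told apart.

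**Figure D1:**
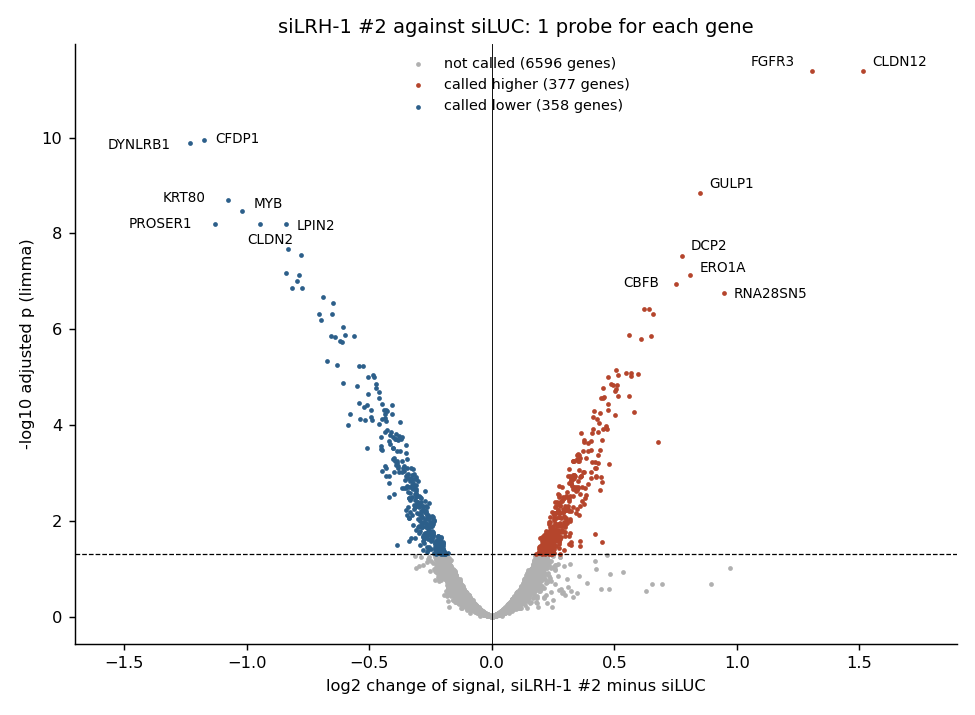
Each point is 1 gene, with the log2 change of signal between siLRH-1 #2 and siLUC on the horizontal axis and the -log10 of the adjusted p from limma on the vertical axis; the dashed line marks an adjusted p of 0.05. CLDN12 and FGFR3 stand apart on the right, and DYNLRB1 and CFDP1 on the left, while most of the 735 called genes changed by less than 1.5-fold.

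The gene with the largest rise was a claudin, and another claudin was among those with the largest falls. Claudins are the membrane proteins that seal the tight junction or form ion pores in it. CLDN12 measured 7.78, 7.84, 7.85 and 7.61 in siLUC replicates 1 to 4 and 9.28, 9.20, 9.38 and 9.27 in siLRH-1 #2 replicates 1 to 4. All siLRH-1 #2 arrays lay far above all siLUC arrays, a 2.86-fold difference (log2 change 1.51, SE 0.07, adjusted p = 4.09e-12). CLDN2, which forms a cation pore in leaky epithelia, measured 11.54, 11.63, 11.57 and 11.44 in siLUC and 10.44, 10.71, 10.69 and 10.56 in siLRH-1 #2. Here the groups were separated in the opposite direction, by 1.93-fold (log2 change -0.95, SE 0.07, adjusted p = 6.37e-09). Of 24 measured genes of tight junctions and cell adhesion, 4 were called higher and 1 lower, with a median change of 0.07 against 0.01 for all genes. Beside CLDN12 the higher genes were CLDN7 (1.24-fold), CRB3 (1.23-fold), a polarity protein of the apical membrane, and the desmosomal cadherin DSG2 (1.16-fold). E-cadherin (CDH1) measured 10.06 in siLUC with a change of 0.03 (adjusted p = 0.879). The same 4 and 1 genes were called without siLRH-1 #2 replicate 2, and CLDN12, CLDN7, CRB3 and CLDN2 in every fit that left out an array.

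Because LRH-1 binds an extended response element, promoter windows of the measured genes were searched for the letters CAAGGTCA and CAAGGCCA on both strands. The windows, taken from RefSeq (GRCh38.p14), span 250 bases before to 50 after each annotated start and were found for 5805 of the 7331 genes. A match was present in 196 genes (3.38%), in 9 of 319 genes called higher (2.82%), in 10 of 294 called lower (3.4%) and in 177 of 5192 not called (3.41%). The shares lay close to each other. They count genes with a match in any of their windows. Counted by single windows, which is another measure, 1017 of all 35116 windows given by RefSeq (2.9%) held a match. Among the 24 genes with the largest changes, 19 had a window and CLDN2 was the 1 with a match. The matching windows of CLDN2 and of the called genes DDIT3, a stress transcription factor, and FAM222B are printed to show where these letters stand, in capitals, 5′ to 3′ in the direction of the gene.
CLDN2, chrX:106899914-106900213, + strand, with CAAGGCCA on the opposite strand from 177 bases before the start: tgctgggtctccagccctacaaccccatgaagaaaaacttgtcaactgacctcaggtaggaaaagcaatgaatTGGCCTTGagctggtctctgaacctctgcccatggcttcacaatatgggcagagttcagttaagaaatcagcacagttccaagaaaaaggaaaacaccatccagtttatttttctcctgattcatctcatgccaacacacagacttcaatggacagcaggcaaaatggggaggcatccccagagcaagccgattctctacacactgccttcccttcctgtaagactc
DDIT3, chr12:57520465-57520764, - strand, with CAAGGCCA from 39 bases before the start: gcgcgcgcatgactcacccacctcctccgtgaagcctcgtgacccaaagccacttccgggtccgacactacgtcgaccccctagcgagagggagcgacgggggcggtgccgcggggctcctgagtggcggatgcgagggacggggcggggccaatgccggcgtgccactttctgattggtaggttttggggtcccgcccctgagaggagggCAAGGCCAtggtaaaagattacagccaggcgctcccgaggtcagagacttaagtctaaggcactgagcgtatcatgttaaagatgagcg
FAM222B, chr17:28842741-28843040, - strand, with CAAGGCCA from 148 bases before the start: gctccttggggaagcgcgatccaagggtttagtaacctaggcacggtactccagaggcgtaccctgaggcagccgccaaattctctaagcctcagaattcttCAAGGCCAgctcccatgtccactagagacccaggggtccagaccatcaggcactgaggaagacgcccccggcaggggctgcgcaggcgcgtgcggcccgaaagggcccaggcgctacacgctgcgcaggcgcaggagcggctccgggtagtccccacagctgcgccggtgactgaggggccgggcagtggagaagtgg
A match describes the letters of this window only, and binding was not measured in these data.

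The growth factor receptor gene FGFR3 rose, and the AP-1 subunit genes FOSL1, JUN and JUND fell. FGFR3, a receptor tyrosine kinase for fibroblast growth factors, measured 8.26, 8.24, 8.07 and 8.09 in siLUC and 9.46, 9.49, 9.52 and 9.42 in siLRH-1 #2. The arrays of each group lay within 0.2 of each other and the groups differed 2.48-fold (log2 change 1.31, SE 0.06, adjusted p = 4.09e-12). The second probe of FGFR3 was dim (mean 6.60) and was not called (adjusted p = 0.57). Among 32 measured genes of MAP kinase feedback and growth factor receptors, FGFR3 and MET, the receptor of hepatocyte growth factor, were called higher, and FOSL1, JUN and JUND were called lower. MET rose 1.28-fold, although its siLRH-1 #2 replicate 4 (10.05) lay within the siLUC range of 9.91 to 10.09. JUN, an AP-1 subunit, measured 9.85, 9.74, 9.74 and 9.69 in siLUC and 9.39, 9.46, 9.50 and 9.47 in siLRH-1 #2, with no overlap and a 1.23-fold fall (adjusted p = 0.00144). FOSL1, its dimer partner, fell 1.27-fold (adjusted p = 0.0011). JUND fell 1.18-fold (adjusted p = 0.0202), but was not called in every fit that left out an array. Other immediate early factors of the list were not called with all arrays. Their changes were -0.04 for FOS, -0.02 for FOSB, -0.04 for JUNB and -0.19 for EGR1 (adjusted p = 0.82, 0.905, 0.842 and 0.0929). Without siLRH-1 #2 replicate 2, 2 genes of this list were called higher and 5 lower. The added lower calls were EGR1 (-0.24, adjusted p = 0.0208) and ERRFI1 (-0.29, adjusted p = 0.0046).

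Genes of the crypt and of Wnt signalling moved in both directions. MYB, a transcription factor of proliferating crypt cells, fell 2.02-fold, from 8.21, 8.46, 8.17 and 8.07 in siLUC to 7.30, 7.16, 7.23 and 7.15 in siLRH-1 #2 (log2 change -1.02, SE 0.07, adjusted p = 3.46e-09). The siLRH-1 #2 arrays lay close together and below every siLUC array. DKK1, a secreted Wnt antagonist, fell 1.42-fold (adjusted p = 0.000309), AXIN2, a feedback inhibitor that serves as a readout of β-catenin activity, 1.23-fold (adjusted p = 0.00719) and MYC 1.22-fold (adjusted p = 0.00726). In the opposite direction, ASCL2, a master regulator of the intestinal stem cell, rose 1.28-fold (adjusted p = 0.000493). CBFB, the non-DNA-binding partner of RUNX factors, measured 9.76, 9.68, 9.75 and 9.94 in siLUC and 10.64, 10.52, 10.54 and 10.43 in siLRH-1 #2. The groups were separated by 1.68-fold (adjusted p = 1.12e-07), whereas the other probe of CBFB was dim (mean 6.03) and showed no call (adjusted p = 0.974). The stem cell marker LGR5 was dim at 6.05 in siLUC, with a change of 0.01 (adjusted p = 0.955). Of the 14 measured genes of this list, which includes CBFB, 2 were called higher and 4 lower, against 5.14% and 4.88% of all genes. The same counts were obtained without siLRH-1 #2 replicate 2 and in every fit that left out an array. The list was chosen with earlier results of these data known. The median of the list was 0.01.

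Beside MYB, the genes that fell most encode a motor subunit, a chromatin protein and a keratin. DYNLRB1, a light chain of cytoplasmic dynein, measured 11.11, 11.01, 11.15 and 11.10 in siLUC and 9.73, 10.08, 9.84 and 9.79 in siLRH-1 #2. This was a 2.35-fold fall with siLRH-1 #2 replicate 2 the least affected array (log2 change -1.23, SE 0.07, adjusted p = 1.31e-10), and the 3 other probes of DYNLRB1 fell by 1.32 to 1.36 on the log2 scale. Of 23 measured genes of dynein, dynactin and their adaptors, DYNLRB1 was the 1 called lower, and HOOK1 (1.28-fold) and the heavy chain DYNC1H1 (1.16-fold) were called higher, DYNC1H1 not without siLRH-1 #2 replicate 2 (adjusted p = 0.127). CFDP1, the relative of a yeast subunit of the complex that exchanges histone H2A.Z, measured 9.02, 9.06, 9.21 and 9.09 in siLUC and 7.78, 8.06, 7.96 and 7.88 in siLRH-1 #2. It fell 2.25-fold (adjusted p = 1.11e-10) and was the 1 called gene among 16 measured genes of H2A.Z remodelling, of which 2 were called without siLRH-1 #1 replicate 1 or 2 and without siLRH-1 #2 replicate 2 or 3. PROSER1, whose other probe fell by 1.13 on the log2 scale as well, fell 2.18-fold, from 9.51, 9.63, 9.63 and 9.66 to 8.34, 8.77, 8.50 and 8.30 (adjusted p = 6.38e-09). KRT80, an epithelial keratin, fell 2.11-fold, from 10.19, 10.48, 10.35 and 10.22 to 9.33, 9.16, 9.13 and 9.30 (adjusted p = 2.03e-09). It was the 1 gene called among 9 measured keratins, with 10.0% called among all genes. The changes of the keratins ran from -1.08 to -0.01 with a median of -0.08. None of these 4 genes had an array of either group within the range of the other.

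**Figure D2:**
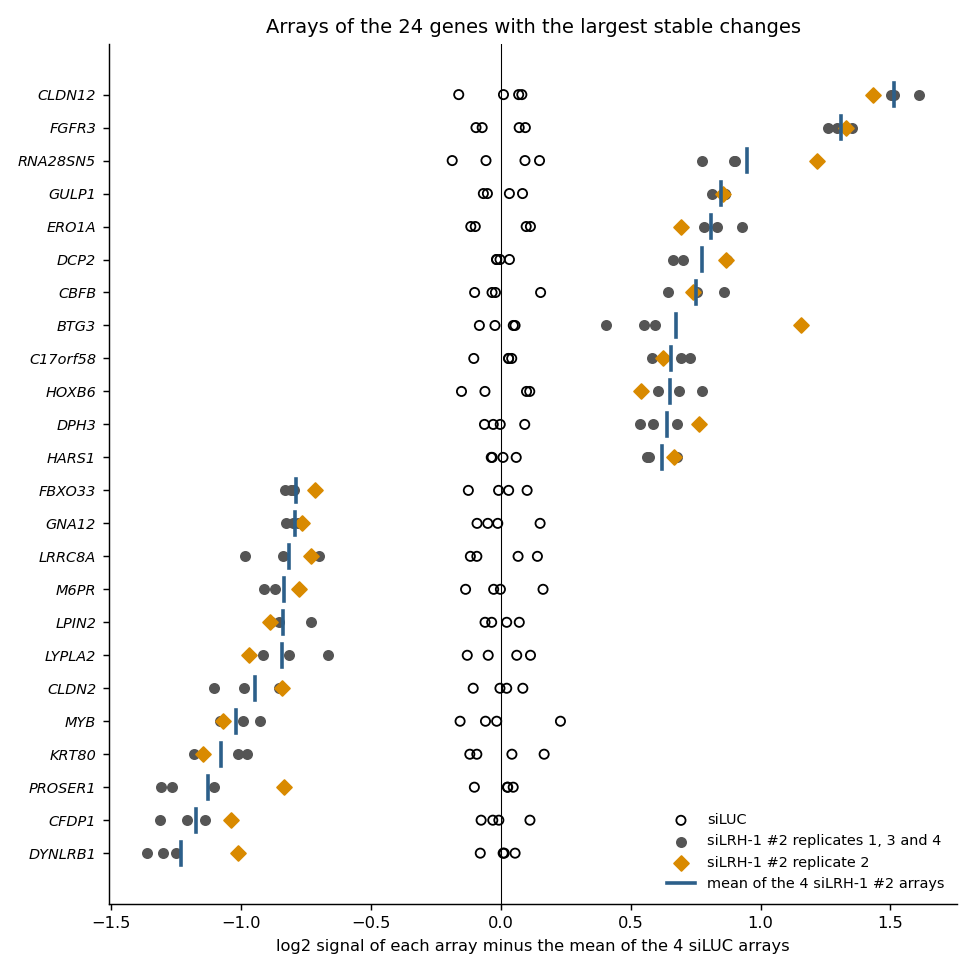
Each row is 1 of the 24 genes with the largest stable changes, and each point is 1 array, as its log2 signal minus the mean of the 4 siLUC arrays; open circles are siLUC, filled circles siLRH-1 #2 replicates 1, 3 and 4, diamonds siLRH-1 #2 replicate 2, and vertical bars the means of the 4 siLRH-1 #2 arrays. No siLRH-1 #2 array overlaps the siLUC arrays in any row, and replicate 2 lies farthest from its group in BTG3, at 10.58 against 9.83 to 10.02.

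The 24 genes shown in the plot of single arrays were chosen as the 12 largest changes in each direction that were called in every fit leaving out an array and had no overlap of arrays. They are a description of the extremes, and 1308 of all genes (17.8%) had no overlap between the 8 arrays. The 12 higher genes changed 1.54-fold to 2.86-fold and the 12 lower genes 1.72-fold to 2.35-fold. The remaining higher genes have diverse functions. GULP1, an adaptor of the engulfment of dying cells, measured 6.19 to 6.34 in siLUC and 7.07 to 7.12 in siLRH-1 #2 (1.80-fold, adjusted p = 1.45e-09). DCP2, the enzyme that removes the cap of mRNA, measured 9.14 to 9.19 and 9.82 to 10.03 (1.71-fold, adjusted p = 2.91e-08). Outside the 24 genes, DICER1, which cuts miRNA precursors, rose 1.53-fold (adjusted p = 1.62e-06). It was called with AGO3 (1.19-fold) among 9 measured genes of the small RNA machinery, of which AGO1 was called lower (1.25-fold).

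HARS1, the cytosolic histidyl-tRNA synthetase, measured 9.59 to 9.69 in siLUC and 10.19 to 10.31 in siLRH-1 #2, and was the 1 called gene among 10 measured cytosolic aminoacyl-tRNA synthetases. DPH3, which acts in the synthesis of the diphthamide residue of elongation factor eEF2, rose 1.56-fold (adjusted p = 3.74e-07) and C17orf58, for which no role is given here, 1.58-fold (adjusted p = 4.89e-07). HOXB6, a homeobox gene, rose 1.57-fold (adjusted p = 1.4e-06). Of 15 measured HOX genes HOXB6 and HOXB7 (1.22-fold) were called higher and HOXB2 lower (1.21-fold), with 10.0% called among all genes. BTG3, an antiproliferative protein of the BTG family, measured 10.02, 10.58, 9.83 and 9.98 in siLRH-1 #2 and 9.35 to 9.48 in siLUC. Replicate 2 was the highest array, and the change of 1.60-fold became 1.43-fold without it (adjusted p = 4.63e-05). RNA28SN5 carries the large ribosomal RNA, which is encoded by many near-identical copies, so that its signal cannot be given to 1 locus. It rose 1.93-fold (adjusted p = 1.74e-07), from 10.94 to 11.28 in siLUC to 11.91 to 12.35 in siLRH-1 #2, with replicate 2 again the highest.

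Genes of the secretory pathway were called in both directions. ERO1A, which oxidises protein disulfide isomerase in the endoplasmic reticulum (ER), measured 7.87, 8.10, 8.08 and 7.88 in siLUC and 8.76, 8.68, 8.81 and 8.91 in siLRH-1 #2, a rise of 1.75-fold without overlap (adjusted p = 7.51e-08). FICD, which modifies the chaperone BiP, rose 1.46-fold (adjusted p = 8.39e-06). DDIT3, a stress transcription factor also called CHOP, rose 1.24-fold, from 8.46 to 8.60 to 8.79 to 8.91 (adjusted p = 0.0101). These were the 3 genes called higher among 20 measured ER chaperones and genes of the unfolded protein response, against 5.14% of all genes. DNAJB9, another target of that response, was called lower (1.21-fold), and BiP itself (HSPA5) changed by 0.13 (adjusted p = 0.213). The median of the list was 0.09, with and without siLRH-1 #2 replicate 2.

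ER-associated degradation, which returns misfolded proteins to the cytosol, had 3 higher and 2 lower genes of 11. The lectin gene ERLEC1 (1.31-fold), the mannosidase-like EDEM3 (1.25-fold) and the ligase MARCHF6 (1.20-fold) rose. DERL2, a channel component, measured 8.57, 8.47, 8.50 and 8.64 in siLUC and 7.88, 7.90, 7.97 and 8.03 in siLRH-1 #2, a fall of 1.52-fold (adjusted p = 9.1e-07), and its paralogue DERL1 fell 1.21-fold (adjusted p = 0.00907). Among 27 measured genes of transport between ER and Golgi, MCFD2, ARFGAP3, COPG2, ARF4 and GBF1 were called higher, by 1.15-fold to 1.27-fold, and GBF1 lost its call without siLRH-1 #2 replicate 2 (adjusted p = 0.0607). ARCN1, the delta subunit of the COPI coat, fell 1.53-fold, from 11.12, 11.27, 11.27 and 11.15 to 10.53, 10.61, 10.60 and 10.61 (adjusted p = 1.79e-06), and KDELR3, a receptor that retrieves ER proteins, fell 1.21-fold (adjusted p = 0.011). COPI subunits were thus called in both directions, ARCN1 lower and COPG2 higher. RAB2A, a small GTPase of early secretory membranes, measured 8.32 to 8.40 in siLUC and 7.56 to 7.61 in siLRH-1 #2 (1.72-fold lower, adjusted p = 2.77e-08). M6PR, the receptor that carries lysosomal enzymes from the Golgi, fell 1.78-fold (adjusted p = 2.1e-08), from 10.21, 10.34, 10.50 and 10.31 to 9.47, 9.56, 9.56 and 9.43. VMA21, which helps to assemble the vacuolar proton pump, fell 1.52-fold (adjusted p = 1.35e-05) and the pump subunit ATP6V1D rose 1.29-fold (adjusted p = 0.000357). These were the 2 genes called among 26 of the pump and the lysosome. Among 35 genes of protein glycosylation, B3GLCT (1.32-fold) and ALG5 (1.26-fold) were called higher and DOLPP1 lower (1.27-fold). Both counts stand beside 10.0% called over all genes.

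More genes of mitosis were called higher than lower, by small factors. Of 37 measured genes of mitosis and cytokinesis 10 were called higher and 2 lower, and the median change was 0.14 against 0.01 for all genes. The higher genes were ARPP19, ANLN, KIF23, KIF4A, ECT2, CDK1, CDC25C, KIF14, KIF20B and KIF11, at 1.15-fold to 1.39-fold. ANLN, which organises the contractile ring, measured 9.90, 9.85, 9.74 and 9.81 in siLUC and 10.35, 10.31, 10.16 and 9.95 in siLRH-1 #2, with replicate 4 the lowest but above every siLUC array. CDC25B, a phosphatase that activates cyclin-dependent kinases, fell 1.26-fold (adjusted p = 0.00136). ARPP19 and ENSA, related inhibitors of the phosphatase PP2A in mitosis, were called in opposite directions, ARPP19 higher (1.39-fold) and ENSA lower (1.16-fold). Without siLRH-1 #2 replicate 2, 7 genes were called higher and 1 lower, and 4 and 1 were called in every fit that left out an array. The 12 calls became 6 without siLUC replicate 2, 7 without siLUC replicate 3 and 6 without siLRH-1 #2 replicate 1. For the mitotic cyclins CCNB1 and CCNB2 the changes were 0.02 and 0.07 (adjusted p = 0.927 and 0.522).

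Around the G1/S transition, 3 of 31 measured genes were called higher and 2 lower, against 5.14% and 4.88% of all genes, and the 5 calls became 3 without siLRH-1 #2 replicate 3. CDKN2D and CDKN1B, which encode the cyclin-dependent kinase inhibitors p19 and p27, rose 1.34-fold and 1.30-fold (adjusted p = 0.00122 and 0.00207). CDKN1B measured 8.70, 8.57, 8.65 and 8.52 in siLUC and 9.01, 8.77, 9.04 and 9.14 in siLRH-1 #2, without overlap. The phosphatase gene CDC25A fell 1.29-fold (adjusted p = 0.00018) and CDK6 fell 1.21-fold (adjusted p = 0.0195), while E2F3 rose 1.15-fold (adjusted p = 0.0227) and lost its call when siLRH-1 #2 replicate 2 was left out (adjusted p = 0.0546).

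Of 14 genes that the study discusses, 9 had a named probe. CDKN1A, which encodes the cyclin-dependent kinase inhibitor p21, measured 8.37, 8.16, 7.98 and 8.31 in siLUC and 8.33, 9.20, 8.37 and 8.34 in siLRH-1 #2. Replicate 2 lay above all other arrays, and the other 3 siLRH-1 #2 arrays overlapped with siLUC. The change of 1.28-fold did not pass the threshold (log2 change 0.36, SE 0.14, adjusted p = 0.143) and was 1.10-fold without replicate 2 (adjusted p = 0.429). Of the p53 targets, MDM2, which was dim at 6.17 in siLUC, changed by 0.08 and BAX by 0.02 (adjusted p = 0.557 and 0.944), although a dimmer probe of BAX was called lower (-0.22, adjusted p = 0.0343). By limma, 0 of 11 measured p53 target genes were called, with 2 at an unadjusted p under 0.05. Without siLUC replicate 2, 1 of them was called. Cyclins D1 and E1, encoded by CCND1 and CCNE1, changed by 0.08 and 0.13 (adjusted p = 0.567 and 0.244). CYP11A1, a steroidogenic enzyme, was dim in both groups, at 6.32 to 6.43 and 6.16 to 6.29 (adjusted p = 0.339). MYC was the 1 gene of the 9 that was called. It was also the 1 called among 11 measured LRH-1 target genes of liver, gut and gonad, with 10.0% called among all genes. Of these 11 genes, 4 lay above the array medians in siLUC, and dim genes were called less often. The arrays of MYC measured 11.62, 11.75, 11.75 and 11.84 in siLUC and 11.47, 11.56, 11.46 and 11.33 in siLRH-1 #2. The other probe of MYC (mean 10.16) changed by -0.23 without a call (adjusted p = 0.0838). Among 14 measured genes of ribosome biogenesis and other MYC targets, 0 were called by limma, 4 had an unadjusted p under 0.05 and the median change was -0.07. The largest change there was that of GNL2, a nucleolar GTPase, with -0.19 (adjusted p = 0.113). Of 7 measured nuclear receptors and coregulators, the histone demethylase gene KDM1A was called lower (1.18-fold, adjusted p = 0.0182), but not in each fit that left out 1 of the 8 arrays, the adjusted p rising to 0.0599 without siLUC replicate 1 and to 0.0578 and 0.0611 without siLRH-1 #2 replicates 3 and 4.

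LPIN2, a phosphatidate phosphatase of glycerolipid synthesis, measured 8.34, 8.47, 8.36 and 8.42 in siLUC and 7.54, 7.51, 7.67 and 7.51 in siLRH-1 #2 (1.79-fold lower, adjusted p = 6.38e-09). DHCR7, the last enzyme of cholesterol synthesis, fell 1.46-fold (adjusted p = 5.74e-06), from 9.45 to 9.77 in siLUC to 9.06 to 9.12, and ACSS2, which makes acetyl-CoA in the cytosol, fell 1.20-fold. HMGCS1, an early enzyme of the same cholesterol pathway, rose 1.37-fold (adjusted p = 0.00021). These were the 4 genes called among 29 of sterol and fatty acid synthesis, with 10.0% called among all genes. AACS, which activates acetoacetate for lipid synthesis, fell 1.53-fold (adjusted p = 1.85e-06). LYPLA2, which removes palmitate from proteins, fell 1.79-fold, from 8.02, 8.21, 8.26 and 8.10 to 7.33, 7.18, 7.48 and 7.23 (adjusted p = 6.7e-08).

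For the remaining lists, too, the counts are to be read against the 10.0% of all genes that were called. LRRC8A, the obligatory subunit of the volume-regulated anion channel, measured 8.32, 8.56, 8.48 and 8.30 in siLUC and 7.43, 7.68, 7.72 and 7.58 in siLRH-1 #2, a fall of 1.76-fold (adjusted p = 1.35e-07). CLNS1A, a chloride conductance regulatory protein that also acts in the assembly of spliceosomal particles, fell 1.32-fold, and the partner subunit LRRC8C rose 1.17-fold, among 17 measured anion channel genes. LRRC8C lost its call once siLRH-1 #2 replicate 2 was left out (adjusted p = 0.122). Of 27 apoptosis regulators, BCL2L2 (1.25-fold), CASP2 (1.24-fold) and HTRA2 (1.18-fold) were called lower and MCL1, an anti-apoptotic relative of BCL2, higher (1.18-fold). These 4 calls became 2 without siLUC replicate 1, siLUC replicate 2 or siLRH-1 #2 replicate 4, and HTRA2 lost its call without siLRH-1 #2 replicate 2 (adjusted p = 0.0536). Of 16 measured NRF2 and oxidative stress genes, MAFG (1.23-fold), GCLC (1.18-fold) and AKR1C2 (1.17-fold) were called higher, and the count fell to 1 without siLUC replicate 2 and without siLRH-1 #2 replicate 1 or 3. Colon differentiation genes had 3 lower calls of 25, with CEACAM1 1.28-fold lower, and 1 without siLRH-1 #2 replicate 2 or without siLUC replicate 2. Among 23 genes that respond to interferon or double-stranded RNA, the RNA sensor IFIH1 (1.26-fold) and IRF7 (1.17-fold) were higher and ADAR (1.22-fold) and IFI44L (1.20-fold) lower, and without siLRH-1 #2 replicate 2 IFI44L was not called.

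**Figure D3:**
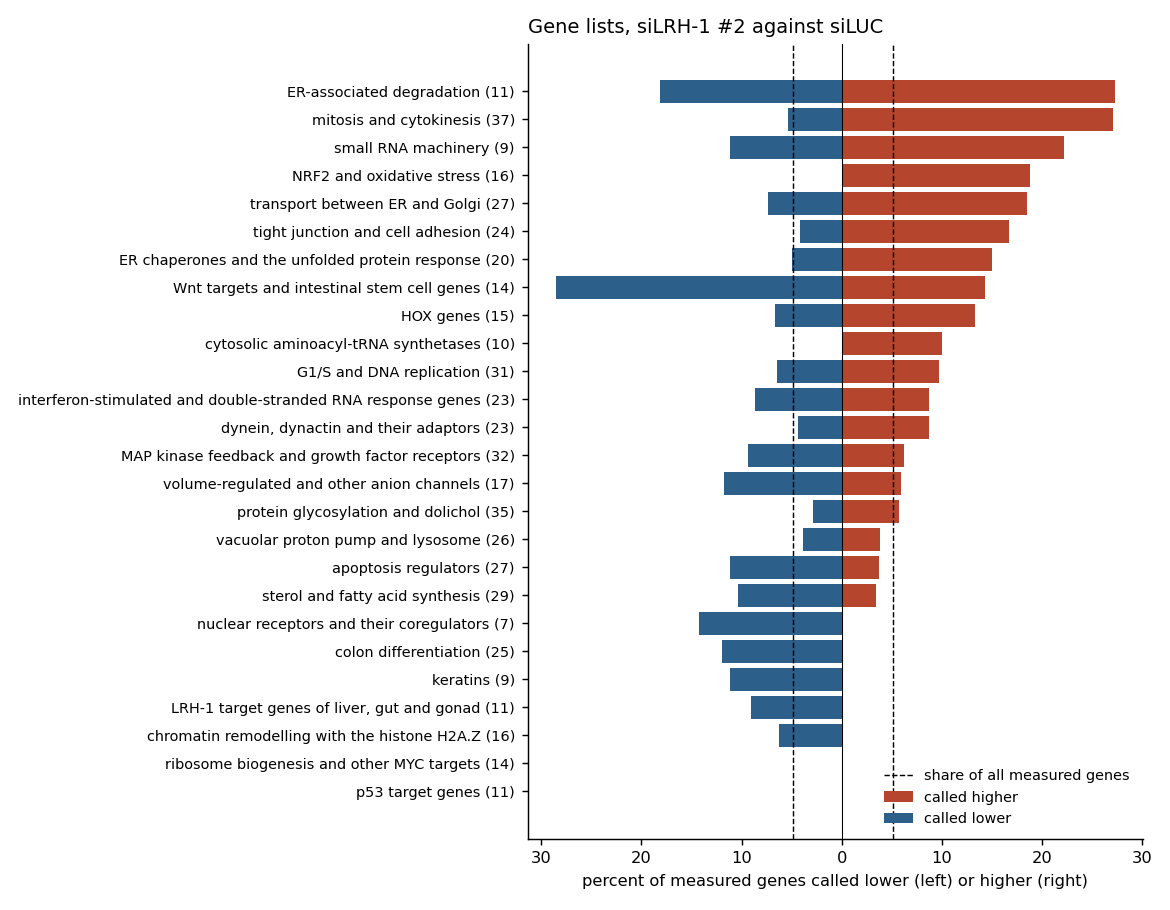
Bars give the percent of the measured genes of each list called higher (right) or lower (left) with siLRH-1 #2; the number of measured genes stands in parentheses, and the dashed lines mark 5.14% and 4.88%, the shares over all 7331 genes. Mitosis and cytokinesis had 10 higher genes of 37, and the Wnt and stem cell list 4 lower genes of 14; the lists were not tested as sets.

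Leaving out siLRH-1 #2 replicate 2 changed a small number of genes strongly. The 6 genes that moved most were MSX1, GAL, CNN3, CAV1, IFITM3 and MT1E. GAL, which encodes the neuropeptide galanin, measured 8.53 in replicate 2 and 5.43 to 5.90 in the other 3 siLRH-1 #2 arrays, against 5.28 to 5.71 in siLUC. MSX1, a homeobox transcription factor, measured 10.59 in that array against 7.88 to 8.48, CAV1, the coat protein of caveolae, 10.44 against 7.98 to 8.71, and CNN3, an actin-binding calponin, 8.81 against 6.45 to 6.77. IFITM3, an interferon-induced membrane protein, measured 8.97 against 6.46 to 6.95. In all 5 genes the other arrays overlapped with siLUC, and none was called with all arrays (adjusted p = 0.0954 to 0.294) or without replicate 2 (adjusted p = 0.15 to 0.841). MT1E, a metallothionein that binds zinc and copper, measured 11.77 in replicate 2 and 9.86 to 10.25 in the others. Its change of 0.04 (adjusted p = 0.954) became -0.37 without replicate 2 (adjusted p = 0.0266). Another metallothionein gene, MT1X, was called in both fits, at -0.59 with all arrays and -0.70 without replicate 2 (adjusted p = 0.000102 and 6.25e-07), although probes of these near-identical genes may share signal. What sets replicate 2 apart was not tested.

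**Figure D4:**
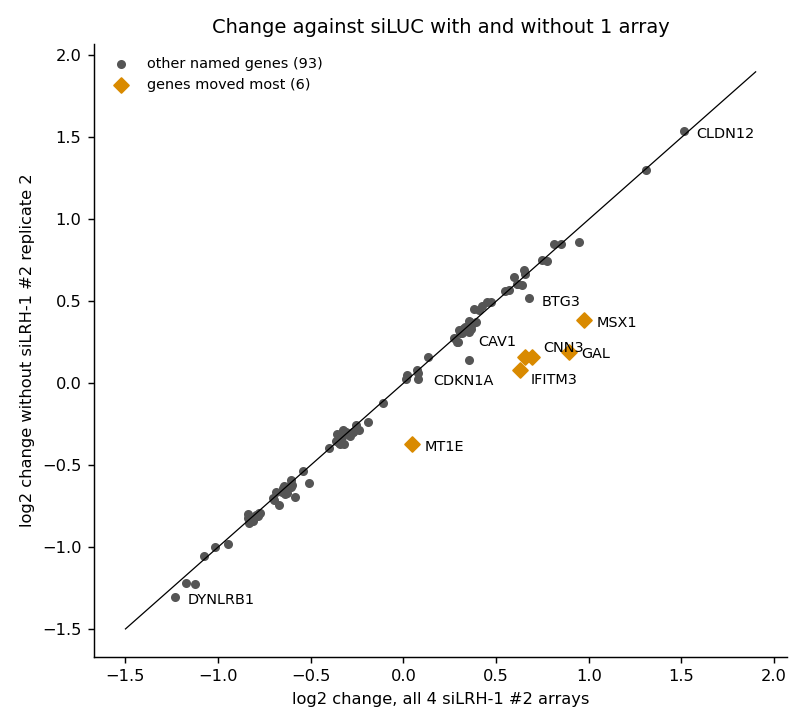
Each point is 1 of the 99 genes named by the rule, with its log2 change over all 4 siLRH-1 #2 arrays on the horizontal axis and without replicate 2 on the vertical axis; the line marks equal values. The 6 genes marked by diamonds fall below the line, GAL from 0.89 to 0.19, while CLDN12 and DYNLRB1 lie on or near it.

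The changes with siLRH-1 #2 were set beside those with siLRH-1 #1, for which the same siLUC arrays served as control, and the siRNAs were compared with each other directly. In that direct comparison 1078 genes (14.7%) and 1629 probes (9.94%) differed. With siLRH-1 #1, 370 genes (5.05%) were higher and 379 (5.17%) lower than in siLUC. The genes with the largest rises mostly rose with both siRNAs. Of the 12 higher genes, 11 were called higher with siLRH-1 #1 too, and 7 of 12 differed between the siRNAs. These genes were chosen by their change against the same siLUC arrays, which favours calls with both siRNAs, so the 11 calls are not independent of the choice. CLDN12 rose 2.86-fold under siLRH-1 #2, as against 2.21-fold under the other siRNA (difference 0.37 on the log2 scale, adjusted p = 0.000588), and FGFR3 2.48-fold and 1.64-fold (adjusted p = 4.9e-07). HARS1, DPH3, HOXB6, ERO1A and BTG3 did not pass the threshold for a difference (adjusted p = 0.505 to 0.98). CBFB was the 1 gene not called with siLRH-1 #1, with 1.68-fold and 1.04-fold (adjusted p for the difference 2.36e-07).

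The 12 genes with the largest falls all differed between the siRNAs, but they, like the 12 higher genes, were chosen for extreme values in the siLRH-1 #2 arrays that enter this test, which favours a difference. KRT80 and LPIN2 were also called lower with siLRH-1 #1, at 1.35-fold each, and 9 genes were not called with it. DYNLRB1 changed by -1.23 with siLRH-1 #2 and -0.19 with siLRH-1 #1 (difference -1.04, adjusted p = 2.6e-09), and CFDP1 by -1.17 and -0.03 (adjusted p = 2.23e-10). CLDN2 changed by -0.95 and 0.09 (adjusted p = 1.7e-09) and MYB by -1.02 and -0.21 (adjusted p = 7.78e-08). LRRC8A was called in opposite directions, at -0.81 with siLRH-1 #2 and 0.34 with siLRH-1 #1 (difference -1.16, adjusted p = 5.77e-10). Smaller changes in opposite directions were those of ARPP19, at 0.47 and -0.40 (adjusted p = 2.53e-08), and CDKN2D, at 0.43 and -0.29 (adjusted p = 1.6e-06). MYC, at -0.29 and -0.04, also differed (adjusted p = 0.0153).

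**Figure D5:**
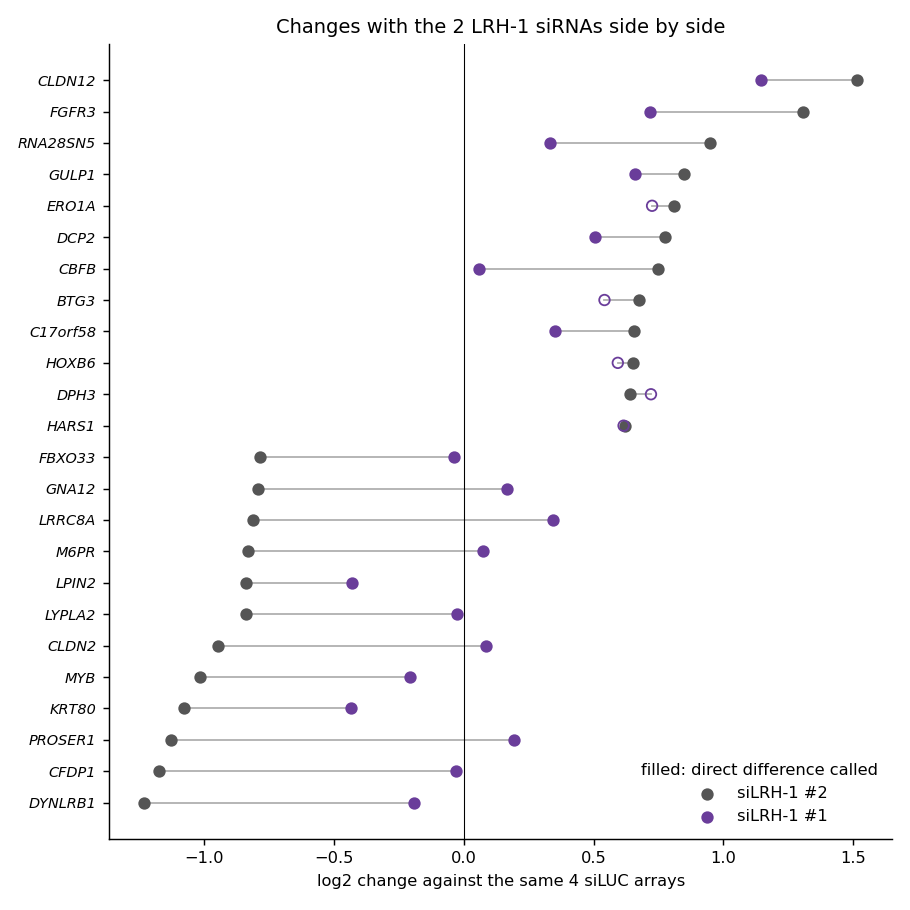
For the same 24 genes, dark points give the log2 change with siLRH-1 #2 and violet points that with siLRH-1 #1, each against the same 4 siLUC arrays; a filled violet point marks a difference between the siRNAs at an adjusted p under 0.05. All points of the 12 higher genes lie to the right of 0, whereas the violet points of 9 of the 12 lower genes were not called against siLUC.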

How the data were processed

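The authors read the BeadChips with GenomeStudio and discarded probes with a detection p above 0.05 in each sample. With Partek they took log2 of the signal and applied quantile normalization (no versions are given in the sources used here). These log2 values of 12 arrays were used as deposited. A further table with 24 columns could not be given to samples from the labels and was not used. Gene names came from the platform annotation, with 9756 of 16381 probes holding 1 symbol, 4 several and 6621 none. Gene IDs of 9746 probes matched RefSeq (GRCh38.p14). Of 7331 genes, 1869 had several probes and were represented by the brightest. Another probe, mostly a dim one, was not called beside a called one for ACSS2, C17orf58, CASP2, CBFB, CEACAM1, DERL2, DKK1, FGFR3, GNA12, GNB5, HOXB6, KDELR3, KIF23, MAFG, MCFD2, MTMR14 and MYC. Unnamed probes enter the fit but are not described.

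The fit used limma 3.58.1 under R 4.3.3 (a mean for each of the 3 groups over all 12 arrays, eBayes with 9 residual and 12.1 prior degrees of freedom, two-sided, Benjamini-Hochberg over all probes), and every adjusted p comes from limma unless stated otherwise. The fit was tested on simulated data. The number of arrays limits the precision. No 2 arrays were identical (0 pairs). Between siLUC and siLRH-1 #2, arrays of the same replicate number did not deviate together (r from -0.151 to -0.105), so no pairing was used. For siLRH-1 #1, r ran from -0.0479 to 0.176 with siLUC and from -0.064 to 0.204 with siLRH-1 #2, highest in replicate 4.

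Named genes were the 12 largest stable changes in each direction, up to 4 stable members of each list (or its largest change), the 6 genes moved most by siLRH-1 #2 replicate 2, and genes the study discusses. Further genes called with at least 1.5-fold, list members named with their counts, markers and G protein subunits were added after their values were seen. Members and lists were chosen with earlier results of these data known. Alternatives were other normalizations, moderation, weights, filters, a replicate block and leaving out each array.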

Additional observations from a re-analysis of the deposited data

Results flagged for a closer look

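Over the 99 named genes, 198 groups of 4 arrays were examined for an array whose gap to the nearest of the others exceeded the 95% critical value of Dixon's test, and 20 groups held one. Chance picks out about 1 in 20 groups of an unselected set. These genes were partly chosen by their array values, so the count cannot be set against that rate. Counted over all probes, siLRH-1 #2 replicate 2 held 50 probes at least 0.5 above all other arrays. The causes of these values were not tested.

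In siLRH-1 #2 replicate 2, GAL (8.53 against 5.43 to 5.90 in the other 3 arrays), CNN3 (8.81 against 6.45 to 6.77), CDKN1A (9.20 against 8.33 to 8.37) and HOXB7 (9.79 against 9.63 to 9.65) were high. In siLRH-1 #2 replicate 1, CYP11A1 (6.16) and MTMR14 (8.16) were low and CLNS1A (11.32) and C1orf116 (9.81) high. In siLRH-1 #2 replicate 3, GULP1 (7.07) was low and FICD (7.91) and ANGEL2 (8.53) high, and in replicate 4 ERLEC1 (10.35) and CAPRIN2 (9.04) were low. Among the siLUC arrays, PROSER1 was low in replicate 1 (9.51), KIF23 in replicate 2 (9.40), and C17orf58 (10.28), GNL2 (11.56) and DOLPP1 (8.91) in replicate 4, while BCL2L2 (9.04) and GNA11 (9.17) were high in replicate 3.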

How the results depend on the processing

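The 24 genes with the largest changes had been chosen as called in every fit leaving out 1 of the 8 arrays, so that their calls there were fixed by the choice, and they also kept direction and call under the other alternatives (504 values in all). Over all 99 named genes 2057 of 2076 values kept direction and call, where a gene that stayed not called counts as kept. Stable list members were also chosen by their calls in the fits that left out an array. Part of this count was therefore fixed by the choice. The number of probes called, 1146 in the main setting, ran from 817 (without siLUC replicate 3) to 1149 (without siLRH-1 #1 replicate 2) when 1 array was left out. It was 943 without moderation of the spread, 1010 with only the 8 arrays and 1043 with the replicate block. Subtraction of array medians gave 1142, cyclic loess 1146, array weights 1186 and a trended and robust spread 1360. A fit and adjustment over only the probes with a mean above the median of 6.55 gave 1503. That count is out of fewer probes than the others. Changes that crossed 0 were those of genes not called with all arrays. Leaving out 1 array gave -0.37 to 0.26 for MT1E, -0.030 to 0.064 for CCNB1 and -0.0082 to 0.038 for BAX. Array weights gave -0.037 for MT1E, and the mean of all probes -0.092 for BAX and -0.044 for CCNE1. Calls were lost for MET, DDIT3 and AGO1 without moderation (adjusted p = 0.0652, 0.0542 and 0.0528) and for KDELR3 with the mean of all probes (adjusted p = 0.0524), and gained for GNL2 with the trended spread (adjusted p = 0.0488) and for MSX1 and CAV1 without siLRH-1 #2 replicate 3 (adjusted p = 0.0219 and 0.0292). The causes were not tested. Normalization from raw signals was not run, because those columns could not be given to samples. Genes near background are limited by dim signal.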

Other observations

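Genes outside the lists above, chosen after their values were seen because they were called and changed at least 1.5-fold, were mostly lower with siLRH-1 #2. CAPRIN2, an RNA-binding protein, measured 9.96, 9.98, 9.92 and 9.99 in siLUC and 9.24, 9.26, 9.22 and 9.04 in siLRH-1 #2 (1.71-fold lower, limma adjusted p = 1.39e-07). FBXO33, an F-box protein, fell 1.72-fold, but had already been named as 1 of the 12 lower genes with the largest stable changes. FAM222B fell 1.63-fold, BLCAP 1.62-fold and FNIP2, a partner of folliculin, 1.61-fold. GTF2E1, a subunit of the general transcription factor TFIIE, measured 8.19 to 8.44 and 7.45 to 7.89 and fell 1.59-fold. C1orf116 fell 1.57-fold, ANGEL2 and DCAKD 1.56-fold, ATOSA 1.55-fold and MTMR14, a phosphoinositide phosphatase, 1.52-fold. ALDH3A1, an aldehyde dehydrogenase, was higher, from 10.20 to 10.40 in siLUC to 10.75 to 11.06 in siLRH-1 #2 (1.51-fold, adjusted p = 8.78e-06). None of these genes had overlapping arrays.

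Subunits of heterotrimeric G proteins, which couple receptors on the cell surface to enzymes and channels inside, were looked at after GNA12 was seen among the lower genes. GNA12, an alpha subunit, measured 8.82, 9.07, 8.90 and 8.86 in siLUC and 8.13, 8.15, 8.11 and 8.09 in siLRH-1 #2 (1.73-fold lower, adjusted p = 9.78e-08). GNA11, an alpha subunit that activates phospholipase C, fell 1.58-fold (adjusted p = 1.4e-06) and GNB5, a beta subunit, rose 1.48-fold (adjusted p = 9.44e-06). Of 22 measured subunits these 3 were called, with 10.0% called among all genes, and the median change was 0.05. GNA12 and GNA11 also differed between the siRNAs (adjusted p = 4.94e-09 and 4.57e-06), and GNB5 did not pass that test (adjusted p = 0.328).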
